A study of Mus musculus with 12 samples.

Results

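The mitochondrial genome of the mouse contributed 37 of the 78317 genes in the table: every entry whose symbol starts with mt-. These were 13 mRNAs, 2 rRNAs and 22 tRNAs. They were followed through 12 libraries of 4T1, a mouse mammary carcinoma line labelled as triple-negative breast cancer. Control cells and cells with a knockout (KO) of PBRM1, a subunit of the PBAF chromatin remodelling complex, were each left without treatment or given 5 ng/ml TGFβ1 for 4 days, with 3 biological replicates in each of the 4 groups. The titles of the untreated libraries also read 0h, while the treatment protocol names 4 days with or without TGFβ1, so a difference in time in culture between untreated and treated cells cannot be told apart from TGFβ1. Both genotypes derive from the same line, and the sources used here do not say whether the KO cells were 1 clone or a pool. The design asks what TGFβ1 and loss of PBRM1, singly and together, do to the transcriptome. The libraries were primed on poly(A) tails and counted at the 3′ end, with molecular identifiers. Library totals ran from 9265693 to 11250850 counts.

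The mitochondrial genome is a small circular DNA present in many copies per cell. It is transcribed from both strands into long precursors by the polymerase POLRMT with the DNA-packaging factor TFAM. Most mRNAs, both rRNAs and most tRNAs come from transcription of the heavy strand, and mt-Nd6 is the only mRNA read from the light strand. Enzymes that excise the tRNAs between the other genes release them, after which most mRNAs receive short poly(A) tails. The mRNAs are translated inside the organelle into core subunits of complexes I, III, IV and ATP synthase. All other subunits, and every protein that copies, transcribes, cuts or translates mitochondrial RNA, are encoded in the nucleus.

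Among the 37 genes, 12 mRNAs, 2 rRNAs and 14 tRNAs are transcribed from the heavy strand and mt-Nd6 and 8 tRNAs from the light strand, by the GENCODE M21 annotation, to which all 37 genes were matched. That annotation is of another genome build than the deposited values, so strand, order, length and sequence were taken from it and no coordinates. Poly(A) priming makes the ends of these transcripts matter to what is counted, and the annotated gene ends of 7 mRNAs are shown for that reason. Whether each transcript, mt-Nd6 included, ended there and carried a tail was not tested. Capitals mark the last codon, or the bases left over after the last whole codon:
mt-Nd1: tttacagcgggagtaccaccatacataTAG
mt-Nd2: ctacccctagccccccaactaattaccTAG
mt-Co2: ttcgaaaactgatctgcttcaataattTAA
mt-Nd6: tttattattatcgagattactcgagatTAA
mt-Co3: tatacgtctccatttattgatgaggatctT
mt-Nd4: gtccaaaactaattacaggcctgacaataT
mt-Cytb: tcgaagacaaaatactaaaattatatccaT
mt-Co3, mt-Nd4 and mt-Cytb each end with 1 base past the last whole codon, so that their stop codon is not in the gene itself. In such mRNAs the poly(A) tail is known to complete it. The TAG printed for mt-Nd1 and mt-Nd2 shares its last 2 bases with the tRNA genes that follow, mt-Ti and mt-Tw. Whether these mRNAs kept those bases was not tested.

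The light-strand mRNA also differed from the others in base composition. Adenine made up 22.2% of mt-Nd6, against 29.5% in mt-Co1 and 40.7% in mt-Atp8, which had the lowest and the highest share among the heavy-strand mRNAs. The longest run of A in mt-Nd6 was 3 bases, and the heavy-strand mRNAs had runs of 4 in mt-Co2 to 8 in mt-Nd2. The last 120 bases of mt-Nd6 are shown beside 3 of the tRNAs counted most often, with runs of 4 or more A in capitals:
mt-Nd6: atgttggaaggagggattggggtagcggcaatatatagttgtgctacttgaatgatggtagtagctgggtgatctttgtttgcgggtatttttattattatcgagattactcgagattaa
mt-Tl1: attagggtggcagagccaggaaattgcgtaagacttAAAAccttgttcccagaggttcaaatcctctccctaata
mt-Ti: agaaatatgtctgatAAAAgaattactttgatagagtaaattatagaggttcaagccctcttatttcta
mt-Tt: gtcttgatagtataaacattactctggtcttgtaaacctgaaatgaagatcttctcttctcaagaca
No capitals occur in the mt-Nd6 stretch or in mt-Tt, and mt-Tl1 and mt-Ti each hold a single run. Whether runs of A inside a transcript were primed was not tested.

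The transcripts of mitochondrial genes were a small and steady part of each library. Their share of all counts was 5.93%, 6.26% and 6.24% in untreated control cells and 5.65%, 6.17% and 6.46% in control cells with TGFβ1. It was 5.79%, 5.84% and 6.87% in untreated PBRM1 KO cells and 5.45%, 6.03% and 6.31% in KO cells with TGFβ1. The groups overlapped in every comparison, and the group means were 6.14% ± 0.188, 6.09% ± 0.412, 6.17% ± 0.609 and 5.93% ± 0.441 in that order (SD, n = 3 each). Over both genotypes, TGFβ1 moved the share by -0.145 percentage points (exact two-sided permutation test within genotype, p = 0.59; adjusted p = 0.84 over 24 tests of 4 such values). In these bulk libraries, fewer transcripts per cell and a larger amount of other RNA cannot be told apart.

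**Figure D1:**
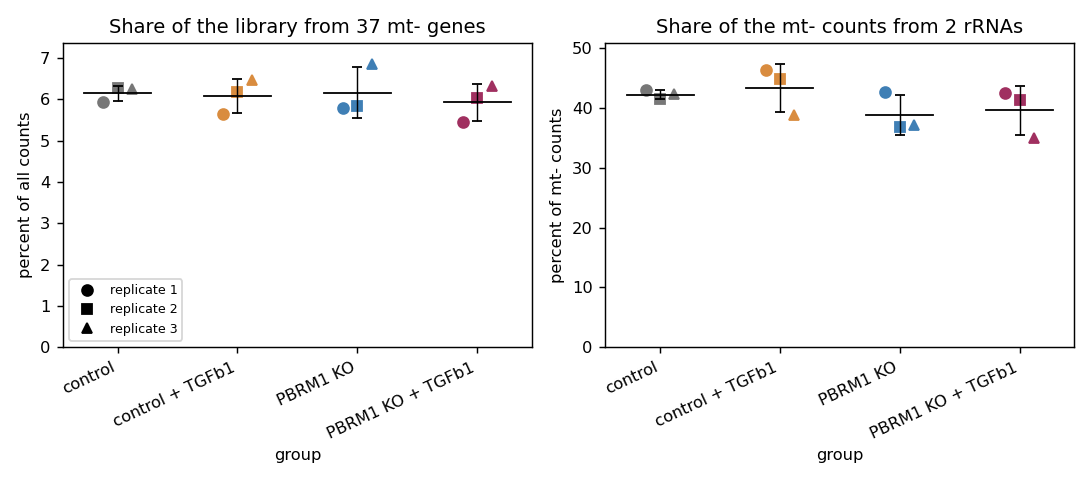
Left, percent of all counts that came from the 37 mt- genes, and right, percent of those counts that came from the 2 rRNAs, by group. Points are libraries, lines and bars the mean ± SD of 3 libraries; the groups overlap in both panels, with mitochondrial shares between 5.45% and 6.87%.

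Several members share their sequence with nuclear copies, pieces of mitochondrial DNA inserted in chromosomes, and the deposited counts divide reads between them. A search found 11 annotated nuclear copies with at least 95% identity over at least 80% of their length. The copy Gm28437 held between 0.9998 and 1.0000 times the counts of mt-Co3 (cytochrome c oxidase subunit III) in every library, and Gm28661 held between 0.9999 and 1.0001 times those of mt-Co2 (subunit II). Atp6-ps held 1.002 to 1.003 times the counts of mt-Atp6, Gm10222 held 0.979 to 0.987 times those of mt-Nd4l, and Gm28438 held 0.5003 to 0.5010 times those of mt-Nd3. Gm29216 held 0.269 to 0.417 times the counts of mt-Co1. The levels of these 6 members are therefore uncertain, and their ratios to the other members should be read with that in mind. With copies added back, the mitochondrial share rose to between 6.66% and 8.49%, and no member changed its call.

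Ratios of copy to member varied with replicate for mt-Nd4, a core subunit of complex I. Gm28439 held 0.146, 0.0955 and 0.0911 times the counts of mt-Nd4 in untreated control cells and 0.149, 0.115 and 0.0909 times in control cells with TGFβ1. It held 0.138, 0.0821 and 0.0807 times the counts in untreated KO cells and 0.122, 0.0957 and 0.0743 times in KO cells with TGFβ1. Replicate 1 was highest in each of the 4 groups.

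Among the mRNAs and rRNAs, mt-Rnr2, the RNA of the large mitochondrial ribosomal subunit, had the highest level. Its mean over the 12 libraries was 22130 CPM (counts per 1000000 counts of the library), or 13989 CPM per kilobase. Per kilobase, mt-Nd1 (complex I) followed at 9179 CPM, mt-Co3 at 6188, mt-Atp6 at 5671, mt-Co2 at 5364 and mt-Cytb (the cytochrome b of complex III) at 4963. mt-Rnr1, the RNA of the small ribosomal subunit, was at 2913 CPM per kilobase, about the level of mt-Nd3 (3328), mt-Nd2 (2611) and mt-Nd4 (2537). mt-Co1 (728), mt-Nd4l (334), mt-Nd5 (229) and mt-Atp8 (115) were lower, and mt-Nd6 at 36.2 CPM per kilobase was the lowest of the mRNAs. This order is of the deposited counts. mt-Co3, mt-Atp6 and mt-Co2 each had a nuclear copy with about as many counts, so their place below mt-Nd1 depends on how reads were divided. The places of mt-Nd3, mt-Nd4l and mt-Co1 are uncertain for the same reason. Since these libraries count 3′ ends, a level per kilobase is not a measure of molecules.

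mt-Atp8 and mt-Nd4l share a transcript with the gene that follows, and the annotation overlaps them by 43 bases with mt-Atp6 and by 7 bases with mt-Nd4. Their levels were 23.4 and 99.1 CPM, beside 3862 CPM of mt-Atp6 and 3496 CPM of mt-Nd4. The 3′ end of a shared transcript falls in the second gene of each pair, so the counts of mt-Atp8 and mt-Nd4l are not a measure of how much of the shared mRNA was present. mt-Nd6 overlaps mt-Nd5 by 14 bases on the opposite strand; the libraries are stranded, but the sources used here do not give the strand setting of the counting.

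**Figure D2:**
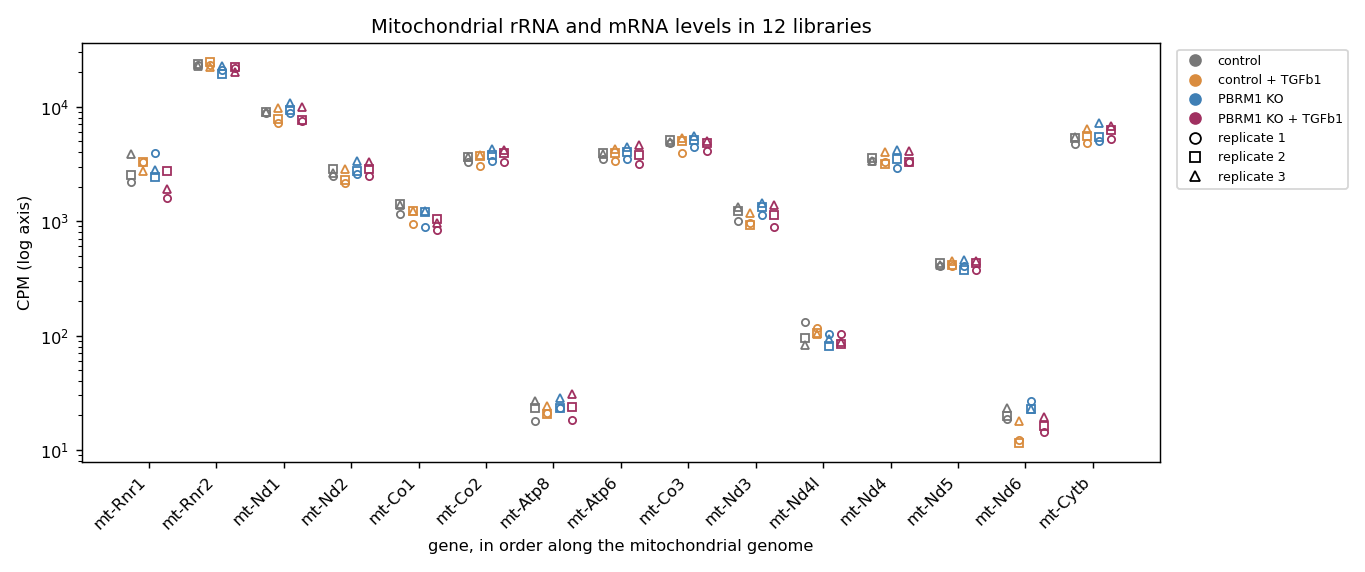
CPM of the 15 mitochondrial rRNAs and mRNAs in the 12 libraries, on a log axis, in order along the genome; colours are groups and marker shapes replicates. Levels run from 11.5 CPM for mt-Nd6 to 24374 CPM for mt-Rnr2, and libraries of different groups lie close together for most genes.

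In the fit across all genes, 20 of the 37 members passed the filter on low counts: all 13 mRNAs, both rRNAs and 5 tRNAs. None of the 20 was called in any of the 5 comparisons by edgeR's quasi-likelihood test at an adjusted p below 0.05. Over all 14012 tested genes, TGFβ1 changed 8.81% in control cells and 11.4% in KO cells, genotype changed 0.278% without TGFβ1 and 0.271% with it, and the interaction changed 0%. At an unadjusted p below 0.05 there were 2, 3, 1, 1 and 0 members in that order, beside 3438, 3811, 1065, 1194 and 247 of all 14012 tested genes. The lowest adjusted p of any member was 0.0613 for TGFβ1 in control cells and 0.0696 in KO cells.

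Leaving out the TGFβ1 replicate 3 libraries of both genotypes raised calls over all genes to 23.9% in control cells and 27.9% in KO cells. mt-Nd1, mt-Nd6, mt-Ti and mt-Tl1 were then called lower with TGFβ1 in both genotypes, 4 members in each. Of all 14260 genes tested there, 1426 were called lower in control cells and 1707 in KO cells. The labels give no ground for leaving these libraries out. For each of the 4 members they were the highest treated libraries in both genotypes, so leaving them out enlarges the fall by itself. With a fit that pairs replicates of equal number, mt-Co1, mt-Nd6 and mt-Ti were called lower in KO cells, beside 7.84% of all tested genes. The same members were called lower by that fit in control cells, where same-numbered libraries deviated together less. The share of all tested genes called by it in control cells is not reported here, so these calls are not set against it. DESeq2 called mt-Nd6 lower in both genotypes and mt-Ti lower in control cells, beside 3.50% of all tested genes called lower in control cells and 4.29% in KO cells. It called none between genotypes or for the interaction, and limma-voom called no member in any of the 5 comparisons.

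mt-Nd6, the light-strand mRNA, encodes a complex I subunit and had lower values with TGFβ1 in both genotypes. In untreated control cells its level was 18.5, 19.9 and 23.3 CPM, and with TGFβ1 it was 12.2, 11.5 and 17.9 CPM. In untreated KO cells it was 26.6, 22.6 and 23.0 CPM, and with TGFβ1 14.3, 16.3 and 19.5 CPM. The groups did not overlap within either genotype, and replicate 3 was the highest of its group in both TGFβ1 groups. The counts behind these levels were 113.5 to 299 per library.

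With TGFβ1 the log2 fold change of mt-Nd6 was -0.56 ± 0.18 (SE) in control cells and -0.53 ± 0.18 in KO cells, with adjusted p of 0.0726 and 0.0696 in edgeR. Neither passed the threshold. In the fit that pairs replicates, the KO value was -0.55 with an adjusted p of 0.0155. That fit also called mt-Nd6 lower in control cells. Without the TGFβ1 replicate 3 libraries the values were -0.80 (adjusted p = 0.00103) and -0.67 (adjusted p = 0.00208). Those libraries had the highest treated mt-Nd6 levels, so a larger fall follows from leaving them out. The sign was kept in 23 of 23 alternatives in each genotype, with adjusted p from 0.00103 to 0.281 in control cells and from 0.00208 to 0.257 in KO cells. The difference between the genotypes' responses was 0.03 ± 0.25 on the log2 scale (adjusted p = 1.00).

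Set against the heavy-strand mRNAs of the same library, mt-Nd6 was lower in every TGFβ1 library than in any untreated library. Per 1000 counts of the 12 heavy-strand mRNAs there were 0.549, 0.545 and 0.648 counts of mt-Nd6 in untreated control cells and 0.406, 0.339 and 0.455 with TGFβ1. In KO cells there were 0.804, 0.612 and 0.533 untreated and 0.459, 0.462 and 0.475 with TGFβ1. All 6 treated libraries lay below all 6 untreated libraries. Over both genotypes the difference was -0.183 (exact two-sided permutation test within genotype, p = 0.005, the smallest that 400 arrangements can give; adjusted p = 0.12 over 24 tests), so it did not pass after adjustment. Within a genotype, 3 against 3 libraries can reach no less than 0.1, which both genotypes gave. Exact sign flips of the 6 same-numbered pairs gave p = 0.03125, the smallest they can give (adjusted p = 0.25), though no label pairs the libraries.

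**Figure D3:**
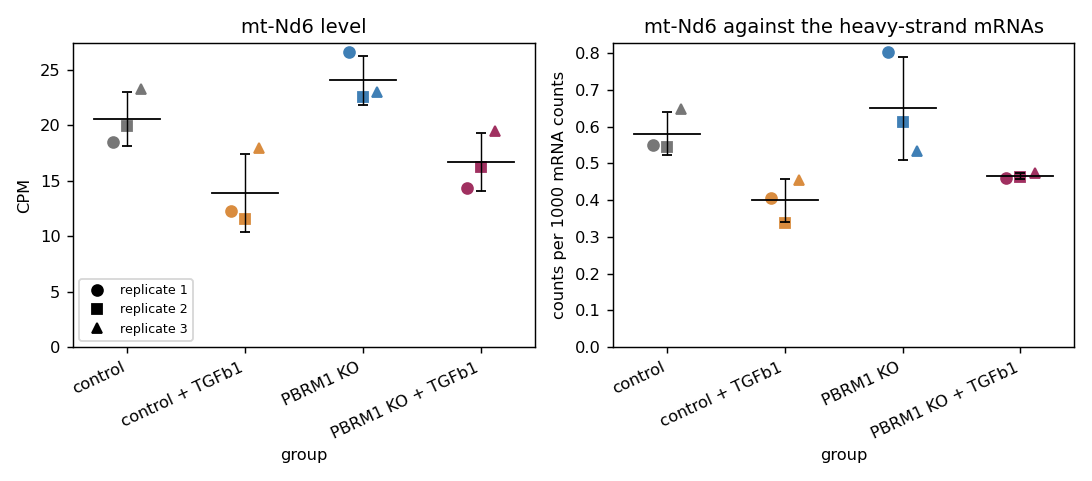
mt-Nd6 by group, as CPM on the left and as counts per 1000 counts of the 12 heavy-strand mRNAs on the right. Points are libraries, lines and bars the mean ± SD of 3 libraries; in the right panel the 6 TGFβ1 libraries lie between 0.339 and 0.475 and the 6 untreated libraries between 0.533 and 0.804.

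Between genotypes, mt-Nd6 had somewhat higher CPM in KO cells, and the groups overlapped with and without TGFβ1. Untreated control cells had a mean of 20.6 ± 2.45 CPM and untreated KO cells 24.0 ± 2.21 CPM. Under TGFβ1 the means were 13.9 ± 3.51 CPM in control and 16.7 ± 2.59 CPM in KO cells (SD, n = 3 each). KO against control gave a log2 fold change of 0.22 ± 0.17 in untreated cells and of 0.25 ± 0.18 under TGFβ1, with adjusted p of 0.907 and 0.778 in edgeR. Per 1000 heavy-strand mRNA counts, all 3 KO libraries with TGFβ1 lay above all 3 control libraries with TGFβ1, by 0.0657 in the mean (exact two-sided permutation test, p = 0.1, the smallest it can give; adjusted p = 0.4 over 24 tests). Untreated, the genotypes overlapped.

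The 12 heavy-strand mRNAs encode the other core subunits, and none passed the test in any comparison. With TGFβ1 their log2 fold changes ran from -0.22 (mt-Nd3) to 0.11 (mt-Cytb) in control cells, median -0.03, with 5 above and 7 below 0. In KO cells they ran from -0.24 (mt-Co1) to 0.04 (mt-Cytb), median -0.03, with 4 above and 8 below 0. The median of all tested genes was 0.00 in both. Their summed level was 33739, 36611 and 35951 CPM in untreated control cells and 30205, 34038 and 39423 CPM with TGFβ1. It was 33075, 36856 and 43099 CPM in untreated KO cells and 31232, 35259 and 40998 CPM with TGFβ1. Replicate 1 was lowest in all 4 groups, and treated and untreated libraries were interleaved.

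mt-Nd3 (complex I), the lowest in control cells, was at 998, 1224 and 1321 CPM without TGFβ1 and 955, 923 and 1177 CPM with it, a log2 fold change of -0.22 ± 0.16 (adjusted p = 0.452). mt-Cytb, the highest, was at 4762, 5328 and 5419 CPM without TGFβ1 and 4841, 5557 and 6338 CPM with it, a log2 fold change of 0.11 ± 0.15 (adjusted p = 0.694). In KO cells mt-Cytb was at 4998, 5407 and 7241 CPM and 5213, 6257 and 6767 CPM, a log2 fold change of 0.04 ± 0.15 (adjusted p = 0.898). Without the TGFβ1 replicate 3 libraries mt-Cytb turned to -0.0048 in control cells and -0.06 in KO cells, so its sign depended on these libraries.

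mt-Co1, the catalytic subunit of cytochrome c oxidase, was at 1147, 1417 and 1375 CPM in untreated control cells and 947, 1225 and 1233 CPM with TGFβ1. The KO levels were 880, 1210 and 1231 CPM without TGFβ1 and 829, 1039 and 968 CPM with it. Replicate 1 was lowest in each group and the groups overlapped. mt-Co1 had a log2 fold change with TGFβ1 of -0.21 ± 0.15 in control cells (adjusted p = 0.405) and -0.24 ± 0.15 in KO cells (adjusted p = 0.327). Leaving out 1 library moved these from -0.33 (without untreated replicate 1) to -0.11 (without treated replicate 1) in control cells, and from -0.39 to -0.14 without the same replicates in KO cells. In the fit that pairs replicates, mt-Co1 fell with TGFβ1 in KO cells by 0.23 on the log2 scale (adjusted p = 0.0155). That fit also called mt-Co1 lower in control cells (adjusted p = 0.0235), where same-numbered libraries deviated together less. With TGFβ1 it was lower in KO than in control cells by a log2 fold change of -0.27 ± 0.15 (adjusted p = 0.677), or -0.27 with an adjusted p of 0.0466 when replicates were paired, beside 0.778% of all tested genes called lower there.

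mt-Nd1, named after its values were seen, was at 8842, 8945 and 8925 CPM in untreated control cells and 7129, 7746 and 9828 CPM with TGFβ1. The KO levels were 8726, 9340 and 10815 CPM and 7548, 7590 and 9980 CPM. In both TGFβ1 groups replicate 3 was above the untreated mean while replicates 1 and 2 were below all untreated libraries. Its log2 fold change was -0.11 in control cells and -0.21 in KO cells (adjusted p = 0.645 and 0.340), and -0.27 and -0.37 without the TGFβ1 replicate 3 libraries (adjusted p = 0.0269 and 0.00384).

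**Figure D4:**
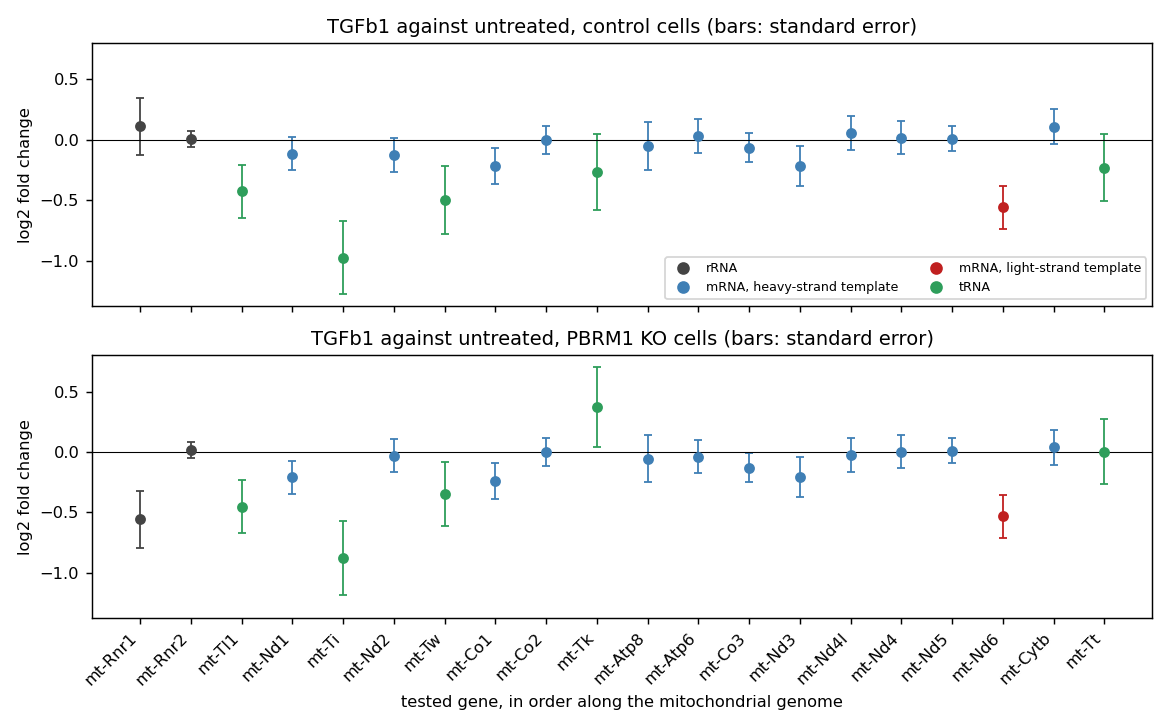
Log2 fold change with TGFβ1 of the 20 tested members in genome order, control cells above and PBRM1 KO cells below; bars are the standard error of the edgeR fit. The heavy-strand mRNAs lie between -0.24 and 0.11. mt-Nd6, mt-Ti, mt-Tl1 and mt-Tw lie below -0.24 in both panels, mt-Tk in control cells alone and mt-Rnr1 in KO cells alone. No point passed the adjusted threshold.

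Genotype differences of the heavy-strand mRNAs were as small. Without TGFβ1 the log2 fold change of KO against control cells ran from -0.25 (mt-Co1, ± 0.15, adjusted p = 0.828) to 0.18 (mt-Cytb, ± 0.15, adjusted p = 0.910), median 0.09. With TGFβ1 it ran from -0.27 (mt-Co1) to 0.22 (mt-Nd2, ± 0.14, adjusted p = 0.744), median 0.02. The interaction ran from -0.10 (mt-Nd1, ± 0.19) to 0.09 (mt-Nd2, ± 0.20), with adjusted p of 1.00 for both.

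The rRNAs made up 43.0%, 41.5% and 42.3% of mitochondrial counts in untreated control cells and 46.4%, 44.8% and 38.9% with TGFβ1. In KO cells they made up 42.8%, 36.8% and 37.2% untreated and 42.6%, 41.4% and 35.0% with TGFβ1. Over both treatments the share was 42.8% in control and 39.3% in KO cells, a difference of -3.53 percentage points (exact two-sided permutation test within treatment, p = 0.075; adjusted p = 0.4 over 24 tests). In same-numbered pairs the difference of KO from control cells was -3.84, -3.39 and -3.90 points with TGFβ1. It was -0.254, -4.64 and -5.13 points untreated, where same-numbered libraries deviated together less. Exact sign flips of all 6 pairs gave p = 0.03125, the smallest they can give (adjusted p = 0.25). No label pairs libraries by number, so the p of that test is not that of a known paired design. With TGFβ1, replicate 3 had the lowest share in both genotypes.

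mt-Rnr2 was at 23308, 23443 and 22512 CPM in untreated control cells and 22918, 24374 and 22364 CPM with TGFβ1. In KO cells it was at 20806, 19110 and 22732 CPM without TGFβ1 and 21597, 22211 and 20185 CPM with it. All 3 KO libraries with TGFβ1 were below all 3 control libraries with TGFβ1. The log2 fold change of KO against control was -0.13 ± 0.07 with TGFβ1 (adjusted p = 0.627) and -0.15 ± 0.07 without it (adjusted p = 0.650). TGFβ1 gave 0.01 ± 0.07 in control cells, whose sign changed with other scalings, and 0.02 ± 0.07 in KO cells (adjusted p = 0.970 and 0.894). The interaction was 0.01 ± 0.09 (adjusted p = 1.00).

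mt-Rnr1 had the widest range over the 12 libraries of any rRNA or mRNA, with 2.53 times between its highest and lowest library after TMM scaling, which were in different groups. Its level was 2189, 2542 and 3884 CPM in untreated control cells and 3306, 3292 and 2759 CPM with TGFβ1. In KO cells it was 3941, 2414 and 2797 CPM without TGFβ1 and 1607, 2749 and 1907 CPM with it. The KO libraries with TGFβ1 were all below the control libraries with TGFβ1, the lowest of which was at 2759 CPM and the highest KO library at 2749 CPM. TGFβ1 gave log2 fold changes of 0.11 ± 0.24 in control cells and -0.56 ± 0.24 in KO cells (adjusted p = 0.813 and 0.151). KO against control was 0.08 ± 0.24 without TGFβ1 and -0.59 ± 0.24 with it (adjusted p = 0.987 and 0.494). The interaction was -0.67 ± 0.34 (adjusted p = 1.00). With no filter on low counts mt-Rnr1 passed in KO cells with TGFβ1 (adjusted p = 2.67e-07), against control cells with TGFβ1 (2.37e-06) and for the interaction (0.00182), where 2.72%, 0.539% and 0.0298% of all tested genes were called lower. That was 1 of 23 alternatives in the first and second comparison and 1 of 22 for the interaction, and mt-Rnr1 passed in no other.

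The mitochondrial tRNAs were barely counted. Together the 22 genes had 178 to 354 counts per library, and 5 of them, mt-Tl1, mt-Ti, mt-Tt, mt-Tw and mt-Tk, held 85.1% of these counts. All 5 lie directly after an mRNA or rRNA of the same strand: mt-Tl1 after mt-Rnr2, mt-Ti after mt-Nd1, mt-Tw after mt-Nd2, mt-Tk after mt-Co2 and mt-Tt after mt-Cytb. Of the 22 tRNAs, 9 have such a neighbour, and the other 13 all failed the filter on low counts. mt-Ti overlaps mt-Nd1 by 2 bases and mt-Tw overlaps mt-Nd2 by 2 bases, so their counts and those of the gene before can be mixed. The 17 tRNAs not tested had mean levels between 0.0122 and 0.659 CPM, and the 8 light-strand tRNAs held 212 counts over all 12 libraries.

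mt-Ti, the isoleucine tRNA gene, named after its values were seen, had the largest difference with TGFβ1 among the tested members. It was at 4.47, 7.78 and 6.76 CPM in untreated control cells and 2.64, 2.58 and 4.54 CPM with TGFβ1. In KO cells it was at 4.13, 5.96 and 6.24 CPM without TGFβ1 and 1.98, 3.19 and 3.80 CPM with it. The groups did not overlap in KO cells, and in control cells 1 treated library reached the lowest untreated library. Its log2 fold change was -0.97 ± 0.30 in control cells (adjusted p = 0.0613) and -0.88 ± 0.30 in KO cells (adjusted p = 0.0811), and the KO value was -0.89 with an adjusted p of 0.00670 when replicates were paired. The fit with pairs also called mt-Ti lower in control cells. Without the TGFβ1 replicate 3 libraries the log2 fold changes were -1.32 (adjusted p = 0.00400) in control and -1.10 (adjusted p = 0.0114) in KO cells. These values rest on 21 to 84.5 counts per library.

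mt-Tl1, the first leucine tRNA gene, was at 9.36, 13.0 and 13.7 CPM in untreated control cells and 7.02, 7.37 and 12.3 CPM with TGFβ1. The KO levels were 11.5, 10.3 and 13.9 CPM without TGFβ1 and 8.07, 8.56 and 9.52 CPM with it, where the groups did not overlap. The log2 fold change was -0.42 ± 0.22 in control cells and -0.45 ± 0.22 in KO cells (adjusted p = 0.255 and 0.201). The tested tRNAs had a median log2 fold change of -0.42 in control cells, with 5 of 5 below 0, and of -0.35 in KO cells, with 3 of 5 below 0. The summed level of all 22 tRNAs was 23.1, 31.2 and 33.3 CPM in untreated control cells and 19.2, 18.2 and 25.8 CPM with TGFβ1, and 25.8, 25.9 and 32.7 CPM against 16.9, 21.2 and 23.1 CPM in KO cells.

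Members whose libraries did not overlap between groups were few. With TGFβ1, mt-Nd6 and mt-Tw were lower in every control library and mt-Nd6, mt-Ti and mt-Tl1 in every KO library, 2 and 3 of 20 tested members, and none was higher. Among all tested genes, 26.2% did not overlap in control cells and 29.9% in KO cells, of which 12.2% and 13.7% of all tested genes were lower with TGFβ1. Between genotypes, mt-Rnr1 and mt-Rnr2 were lower in every KO library with TGFβ1, 2 of 20 beside 11.9% of all tested genes, and none of the 20 separated the genotypes without TGFβ1, beside 15.7%.

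Across the 12 libraries the heavy-strand mRNAs moved together. The log2 level of each was set against the summed level of the other heavy-strand mRNAs, and Pearson's r was 0.76 (mt-Nd5) to 0.93 (mt-Atp6) for 10 of the 12. mt-Co1 had 0.49 and mt-Nd4l had -0.50. mt-Nd6 had 0.54, mt-Rnr1 had -0.01 and mt-Rnr2 had -0.09. These values are descriptions: libraries are shared, a common scaling enters every gene, and the replicates of a number tended to be high or low together. The nuclear genes most like the summed heavy-strand mRNAs, among 8591 with a mean of at least 10 CPM, were Clcf1 (r = 0.92), Myc (0.92), Cd9 (0.92), Ergic1 (0.91) and Eif1 (0.91), each over 12 libraries.

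The nuclear genes that serve the mitochondrial genome were read from the same fit. Of 19 tested genes for maintenance and transcription of the DNA, 0 were called with TGFβ1 in either genotype by edgeR, DESeq2 or limma-voom. In edgeR 1 in control and 0 in KO cells had an unadjusted p below 0.05, beside 3438 and 3811 of all 14012 tested genes. With the TGFβ1 replicate 3 libraries left out, edgeR called 1 lower in each genotype, Mgme1, at -0.52 and -0.79 on the log2 scale (adjusted p = 0.00653 and 0.000195). Polrmt, the polymerase, was at 8.68, 11.1 and 9.90 CPM in untreated control cells and 10.4, 9.95 and 9.94 CPM with TGFβ1, and its log2 fold change was 0.03 ± 0.13 in control and 0.17 ± 0.13 in KO cells (adjusted p = 0.928 and 0.442). Tfam was at 54.7 to 59.7 CPM in untreated and 52.8 to 59.3 CPM in treated control cells, and its log2 fold change was -0.05 ± 0.08 in control and -0.01 ± 0.08 in KO cells (adjusted p = 0.774 and 0.953). Ppargc1a, a coactivator of mitochondrial biogenesis, was at or near 0 in all libraries, with at most 0.106 CPM.

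Of 31 genes for processing and decay of mitochondrial RNA, 1 fell with TGFβ1 in each genotype and 0 rose, beside 2.91% and 3.72% of all tested genes called lower and 5.89% and 7.65% called higher. The gene was Hsd17b10 in both, a subunit of the mitochondrial RNase P that cuts the 5′ ends of tRNAs. It was at 66.7, 66.4 and 68.1 CPM in untreated and 54.5, 49.1 and 54.3 CPM in treated control cells, a log2 fold change of -0.35 ± 0.09 (adjusted p = 0.0322). In KO cells it was at 63.5, 65.4 and 62.7 CPM and 48.7, 47.4 and 57.5 CPM, a log2 fold change of -0.33 ± 0.09 (adjusted p = 0.0366). Treated and untreated libraries did not overlap in either genotype. Lrpprc, which stabilises heavy-strand mRNAs, had log2 fold changes of -0.06 ± 0.09 in control and -0.23 ± 0.09 in KO cells (adjusted p = 0.710 and 0.124).

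Among 8 tested coregulators of mitochondrial biogenesis, none was called in control cells by edgeR, DESeq2 or limma-voom. In edgeR 3 had an unadjusted p below 0.05 there, beside 3438 of all 14012 tested genes. In KO cells 2 were called, 1 higher and 1 lower, beside 7.65% and 3.72% of all tested genes. Without the TGFβ1 replicate 3 libraries, Esrra was called higher in control cells (0.40, adjusted p = 0.0103) and Nrf1 and Ppargc1b lower (-0.30 and -0.75, adjusted p = 0.0176 and 0.0200), so the lack of calls in control cells depended on these libraries. In KO cells Esrra, a nuclear receptor that activates respiratory genes, rose from 27.7, 28.2 and 30.5 CPM to 40.7, 43.2 and 42.7 CPM (log2 fold change 0.54 ± 0.11, adjusted p = 0.00675). Ppargc1b, a coactivator of the same family as Ppargc1a, fell from 6.13, 6.19 and 6.47 CPM to 2.45, 1.69 and 3.23 CPM (log2 fold change -1.35 ± 0.24, adjusted p = 0.00350).

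The mitochondrial ribosomal proteins, which assemble with both rRNAs, had lower values with TGFβ1 in most cases and small differences. Of 78 tested, 6 fell and 0 rose in control cells, with a median log2 fold change of -0.20, and 2 fell and 0 rose in KO cells, with a median of -0.15, beside 2.91% and 3.72% of all tested genes called lower. Those that fell became 28 and 26 without the TGFβ1 replicate 3 libraries. When replicates were paired they became 9 in KO cells, beside 7.84% of all tested genes called lower. In control cells, where same-numbered libraries deviated together less, they became 20, without a share of all tested genes to set them against. In both genotypes 74 of 78 lay below 0. Mrpl33 fell by 0.53 on the log2 scale and Mrpl4 by 0.47 in control cells (adjusted p = 0.0135 and 0.0114), and Mrpl54 by 0.46 and Mrpl18 by 0.31 in KO cells (adjusted p = 0.0268 and 0.0432).

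The nuclear subunits of the complexes that also hold mitochondrial subunits were compared with the 13 mitochondrial mRNAs. Over 75 tested nuclear entries, 7 fell and 0 rose with TGFβ1 in control cells, and the median log2 fold change was -0.15, beside -0.05 for the mitochondrial mRNAs. In KO cells 2 fell and 1 rose, with medians of -0.13 and -0.04. Of all tested genes, 2.91% were called lower and 5.89% higher in control cells and 3.72% and 7.65% in KO cells, so the KO counts were not above the share of all genes. The counts below 0 were 71 and 65 of 75. Ndufs7 and Ndufa10 (complex I) fell by 0.43 and 0.31 on the log2 scale in control cells, Atp5f1a and Atp5mc1 (ATP synthase) by 0.27 and 0.36 and Uqcr10 (complex III) by 0.36, with adjusted p from 0.0102 to 0.0342. In KO cells Ndufa5 and Ndufb10 fell by 0.35 and 0.28 (adjusted p = 0.0488 and 0.0472). None of the 11 subunits of complex IV or the 4 of complex II, which has no mitochondrial subunit, was called in either genotype by edgeR or limma-voom with all 12 libraries and no pairing. At an unadjusted p below 0.05 edgeR gave 2 and 1 of complex IV and 2 and 2 of complex II in control and KO cells. Of all 14012 tested genes it gave 3438 and 3811. DESeq2 called Cox8a of complex IV lower in control cells. With the TGFβ1 replicate 3 libraries left out, edgeR called Cox8a lower in both genotypes and Sdhb and Sdhd of complex II in KO cells. When replicates were paired, edgeR called Cox8a, Ndufa4 and Sdhd lower in KO cells and Cox8a lower in control cells (adjusted p = 0.0237).

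**Figure D5:**
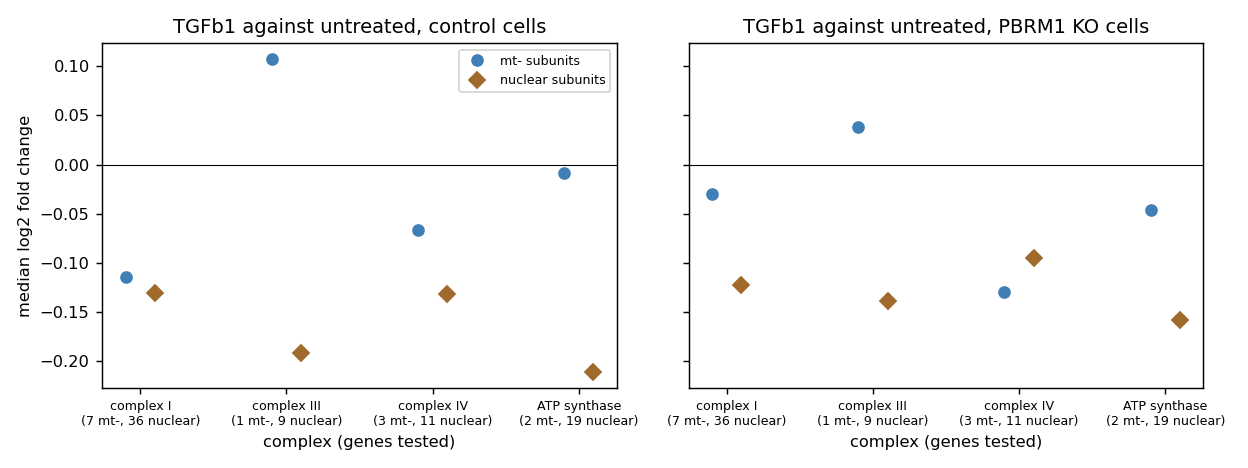
Median log2 fold change with TGFβ1 of the mitochondrial (circles) and nuclear (diamonds) subunits of each complex, control cells left and PBRM1 KO cells right, with the number of genes under each name. Nuclear medians lie between -0.21 and -0.09, and mitochondrial medians between -0.13 and 0.11.

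The balance of both genomes was also taken as 1 value per library, the log2 ratio of mitochondrial mRNA counts to the counts of the 75 nuclear subunits. It was 1.16 ± 0.04 in untreated and 1.26 ± 0.19 in treated control cells, and 1.30 ± 0.17 and 1.34 ± 0.13 in KO cells (SD, n = 3 each). TGFβ1 moved it by 0.07 over both genotypes (exact two-sided permutation test within genotype, p = 0.39; adjusted p = 0.84 over 24 tests) and genotype by 0.11 over both treatments (p = 0.2; adjusted p = 0.6). For genotype, exact sign flips of the 6 same-numbered pairs gave p = 0.03125, the smallest they can give (adjusted p = 0.25), though no label pairs the libraries. The untreated KO libraries were all above the untreated control libraries, with an exact permutation p of 0.1, the smallest 3 against 3 can give (adjusted p = 0.4). The KO values were 1.20, 1.20 and 1.49 and the highest control value 1.20, and the difference of 0.14 was 0.0414 without KO replicate 3.

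Over the 9 nuclear lists, 14 of 215 tested genes fell and 0 rose with TGFβ1 in control cells, and 6 fell and 2 rose in KO cells, beside 2.91% and 5.89% of all tested genes called lower and higher in control cells and 3.72% and 7.65% in KO cells. Without the TGFβ1 replicate 3 libraries 51 fell and 3 rose in control cells and 50 fell and 4 rose in KO cells, beside 1426 and 1707 of all 14260 tested genes called lower. When replicates were paired, 25 fell and 2 rose in KO cells, beside 7.84% of all tested genes called lower. Paired by number in control cells, where same-numbered libraries deviated together less, 37 fell and 0 rose. The share of all tested genes called there is not reported here, so the 37 cannot be read as particular to the lists. Genotype called 0 of the 215 with or without TGFβ1 by edgeR, DESeq2 or limma-voom. In edgeR 2 without and 10 with TGFβ1 had an unadjusted p below 0.05, beside 1065 and 1194 of all 14012 tested genes. No adjustment of p-values over a list was made, since the lists were drawn up with results of these data known.

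Of the checks on the cells, the keratin Krt8 of epithelial cells was at 572 to 916 CPM and Epcam at 163 to 270 CPM in all libraries. Krt18 ran from 711 to 1008 CPM, Cdh1 from 124 to 297, Krt19 from 22.4 to 75.7 and Krt14 from 3.98 to 90.7. Pgr, the progesterone receptor, had counts in 1 library, Esr1 was at 4.42 to 11.5 CPM and Erbb2 at 34.6 to 41.6 CPM, so transcripts of these receptors were low but not all absent. The 6 epithelial markers summed to 2321 to 2428 CPM in untreated and 1634 to 1892 CPM in treated control cells. In KO cells they summed to 2200 to 2358 and 1903 to 2007 CPM. With TGFβ1, 4 and 3 of the 6 were called lower, beside 2.91% and 3.72% of all tested genes. In each genotype 2 of the 6 lay above 0. The 5 leukocyte markers summed to at most 0.284 CPM and the 4 endothelial markers to at most 1.28 CPM. The 5 fibroblast markers summed to 14.3 to 26.7 CPM in untreated and 18.3 to 67.9 CPM in treated libraries. Pbrm1 was at 258 to 328 CPM in control and 207 to 274 CPM in KO libraries; 3′ counts outside an edited site do not check a knockout, so the genotype labels were not checked by it.

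Neat1 and Malat1, RNAs retained in the nucleus, were read as levels of RNA that stays in the nucleus. Neat1 fell with TGFβ1 in control cells from 93.4, 89.9 and 85.6 CPM to 62.2, 72.3 and 60.0 CPM (log2 fold change -0.47 ± 0.10, adjusted p = 0.0125), and its value in KO cells was -0.21 ± 0.10 (adjusted p = 0.199). Malat1 ranged from 489 to 859 CPM with all groups overlapping. Their part in the values of the mitochondrial transcripts was not tested.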

How the data were processed

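The authors deposited expected counts, named counts in the file headers, and CPM for 12 libraries. 91.8% of the deposited values were whole numbers, zeros included, and 72.5% of those above 0. The deposited CPM equal the count over the library total. Per the submitters' processing notes, the genome build was mm39, the aligner STAR 2.7.11 and the counter featureCounts (Subread 2.1.1), with edgeR 3.38.4, fastp 0.24.0 and SAMtools 1.22.1 also named. Their settings and the annotation are not given in the sources used here. Counts were rounded, filtered with filterByExpr (14012 genes) and scaled by TMM. edgeR 4.0.16 in R 4.3.3 fitted 1 mean per group to all 12 libraries (quasi-likelihood F test, Benjamini-Hochberg over all tested genes, adjusted p below 0.05); each SE was obtained by dividing the log2 fold change by the root of F. The fit was tested on simulated data. DESeq2 1.42.0 and limma 3.58.1 were alternatives. Values per library were compared with exact permutation tests. p-values measure the spread between biological replicates as labelled. BLAST 2.17.0 searched for nuclear copies.

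The members, lists and tests were chosen with earlier results of these data known. Fold changes are given for mt-Nd6, both rRNAs, any member that passed and, in each comparison, the heavy-strand mRNAs with the largest and smallest value; the nuclear genes are Polrmt, Tfam, Lrpprc, Ppargc1a and up to 2 per list and direction. mt-Ti, mt-Tl1, mt-Co1, mt-Nd1 and the nuclear genes called only under an alternative were added after their values were seen. The values of 1 nuclear gene that the rule selects are not reported here. The fit that pairs replicates added a term for replicate number over all 12 libraries, so its values in KO cells also draw on control libraries. Same-numbered libraries deviated together in every pair (r above 0.1) for TGFβ1 in KO cells (0.201, 0.139 and 0.202). They also did so for genotype with TGFβ1 (0.396, 0.416 and 0.726). Pairing by number is read from the data, not the labels.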

Additional observations from a re-analysis of the deposited data

How the results depend on the processing

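No member was called in the 5 comparisons, and other settings added calls for lower members: with TGFβ1 in control cells 2 without a filter on low counts, 2 with DESeq2 and 4 without both TGFβ1 replicate 3 libraries (0 to 3 when 1 library was left out), and in KO cells 3, 1, 4 and 0 to 3. Without a filter 1 member, mt-Rnr1, was called for genotype with TGFβ1 and 1, mt-Rnr1, for the interaction. The replicate block gave 3 lower members for TGFβ1 in control cells (mt-Co1, mt-Nd6 and mt-Ti), 3 in KO cells, 1 for genotype with TGFβ1 and none without it. Same-numbered libraries gave r of 0.258, -0.0835 and 0.137 for TGFβ1 in control cells. For genotype without TGFβ1 they gave 0.149, 0.0690 and 0.125. Not every r passed 0.1 there, and whether these libraries were paired was not tested. The tests on values per library gave no adjusted p below 0.05 with or without pairing.

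Nuclear genes called lower, 14 in control and 6 in KO cells, became 22 and 11 with DESeq2, 4 and 3 with only the 6 libraries of the comparison, 37 and 25 with the replicate block, 51 and 50 without both TGFβ1 replicate 3 libraries, and 12 in KO cells without a filter. Leaving out 1 library gave 0 to 32 and 1 to 41. Those called higher became 3 and 4 without both replicate 3 libraries, and 0 to 3 and 1 to 3 when 1 library was left out. Fewer libraries were tested in the latter settings, and the cause was otherwise not tested. For the 6 libraries, for 1 library left out and for the replicate block in control cells, shares of all tested genes are not reported here. Counts of members or nuclear genes in these settings can therefore not be read as particular to them.

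Values near 0 changed sign. Without both replicate 3 libraries mt-Cytb was -0.0048 in control and -0.0591 in KO cells, and the log2 ratio of mitochondrial mRNAs to nuclear subunits moved by -0.0313 in KO cells and -0.0114 over both genotypes. mt-Rnr2 with TGFβ1 in control cells was -0.00149 with DESeq2's size factors, in edgeR and in DESeq2, -0.00823 with 6 libraries and -0.0106 with nuclear copies added, an alternative chosen after seeing the data. Tfam in KO cells was 0.0012 with library size alone. With mRNAs only, the mitochondrial share differed by 0.128 points for genotype with TGFβ1 and by 0.176 over both treatments.

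Leaving out 1 library gave these ranges of log2 fold change with TGFβ1: mt-Cytb -0.0809 to 0.20 in KO and -0.0048 to 0.19 in control cells, mt-Rnr1 -0.0805 to 0.40 in control, mt-Rnr2 -0.0544 to 0.0698 in KO and -0.0400 to 0.0230 in control, Polrmt -0.0922 to 0.10 in control and Tfam -0.0768 to 0.0265 in KO. mt-Rnr1 by genotype without TGFβ1 ran from -0.14 to 0.38, and the interactions from -0.26 to 0.0594 (mt-Nd1), -0.0346 to 0.24 (mt-Nd2), -0.12 to 0.26 (mt-Nd6) and -0.0430 to 0.0809 (mt-Rnr2). The mitochondrial share ran from -0.235 to 0.172 points (TGFβ1, control), -0.430 to 0.113 (KO), -0.329 to 0.211 (genotype without TGFβ1), -0.388 to 0.0766 (with), -0.241 to 0.0310 (TGFβ1 over both) and -0.247 to 0.0493 (genotype over both). The rRNA share ran from -0.408 to 3.37 (control) and -0.714 to 3.09 (KO), mt-Nd6 per 1000 counts from -0.0081 to 0.127 (genotype without TGFβ1), and the log2 ratio from -0.0313 to 0.14 (TGFβ1, KO) and -0.0205 to 0.17 (genotype with TGFβ1). mt-Nd6 per 1000 counts of the heavy-strand mRNAs kept its sign with TGFβ1 in 16 of 16 alternatives in each genotype. The tRNAs, mt-Nd6 and mt-Atp8 rest on few counts.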
